A study of Mus musculus with 30 samples.

Results

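The data describe 5 microRNA precursors that are widely read as markers of fibroblasts and fibrotic tissue: Mir21a, Mir199a-1, Mir199a-2, Mir199b and Mir214. They were taken by symbol from 5 organ tables that each name 2194 features, and all 5 were present in every table. Small RNA had been sequenced from the spleen, liver, kidney, heart and brain, each taken whole, of 6 mice, all male and 4 months old. Of these, 3 mice carried the genotype labelled Ftsj1_DF, deficient in the tRNA methyltransferase Ftsj1, and 3 were wild type (WT). The mRNA of Ftsj1 is not a feature of these tables, and the genotypes were taken from the labels unchecked. No further treatment was given, and the labels name no other allele. Each organ gave 6 libraries, 30 in all, and the mice came from 2 sets of brothers that each hold both genotypes.

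MicroRNAs are short RNAs that are cut from a hairpin precursor, loaded into an Argonaute protein and guide it to mRNAs that pair with the seed, the bases 2 to 8 of the mature strand. miR-21 is abundant in many tissues and is known for its rise in stressed heart and kidney. miR-199a and miR-214 are known from mesenchyme and connective tissue, and Mir199a-2 and Mir214 are cut from the same long non-coding transcript, Dnm3os. Fibroblasts were not isolated here. The tables hold no independent fibroblast marker, so the cell type in the usual name of this group was not checked, and the precursors are named by symbol. In whole tissue, fewer cells of a type and less RNA per cell cannot be told apart.

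The mature strands are shown because they set what the counts can tell apart. Sequences are from RefSeq (GRCm38.p6), read 5′ to 3′, with the seed in capitals.
miR-21a-5p: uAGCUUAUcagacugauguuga
miR-21a-3p: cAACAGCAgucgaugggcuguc
miR-199a-5p (from Mir199a-1 and from Mir199a-2): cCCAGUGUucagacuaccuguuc
Mir199b hairpin, the stretch that matches miR-199a-5p: cCCAGUGUuuagacuaccuguuc
miR-199a-3p and miR-199b-3p: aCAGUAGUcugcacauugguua
miR-214-5p: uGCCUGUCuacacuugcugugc
miR-214-3p: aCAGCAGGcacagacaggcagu
miR-21b: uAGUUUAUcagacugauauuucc
miR-21c: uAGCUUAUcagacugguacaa

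Mir199a-1 and Mir199a-2 give the same 5p strand of 23 bases and the same 3p strand of 22 bases, with 0 substitutions in either. miR-199b-3p is also identical to miR-199a-3p, and the Mir199b hairpin differs from miR-199a-5p by C10U, counted from the 5′ end. Outside the mature strands the 2 Mir199a hairpins share 0 bases before the 5p strand, 4 after it, 3 before the 3p strand and 1 after it. Reads of a mature strand alone therefore fit both Mir199a hairpins, and how such reads were assigned is not given in the sources used here. The counts of the 3 miR-199 precursors are uncertain for that reason. miR-21c keeps the miR-21a-5p seed and differs by A16G, G18A, U19C, U20A and G21A. miR-21b differs within the seed by C4U and outside it by G18A, G21U and A22C.

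The precursors lie on 4 chromosomes in RefSeq GRCm38.p6. Mir21a (chr11:86584067-86584158, minus strand) overlaps an exon in the untranslated part of 1 transcript of Vmp1 on the same strand. Mir199a-1 (chr9:21496495-21496564, minus strand) lies within introns of Dnm2 on the opposite strand, and Mir199b (chr2:32318460-32318569, plus strand) lies likewise within Dnm1. Mir199a-2 (chr1:162217814-162217923, plus strand) and Mir214 (chr1:162223368-162223477, plus strand) are both in exons of Dnm3os, opposite to introns of Dnm3, with 5444 bases between them. All 3 miR-199 genes are thus placed opposite to a dynamin gene.

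The tables hold an organ's mean normalized count, a log2 fold change between genotypes with its standard error (SE) and p-values, and do not name the numerator genotype. Below, the positive side is the genotype whose libraries raise the fold change, and the negative side is the other. Because the deposited means are sums of whole reads over 6 size factors, reads per library could be recovered for the miR-199 and miR-214 precursors in all 20 precursor and organ combinations, and not for Mir21a, which is too abundant. Libraries are numbered within a side from the highest size factor to the lowest, and a number joins no samples across organs. Size factors spanned 0.730 to 1.92 in brain, 0.605 to 2.37 in heart, 0.690 to 1.33 in kidney and 0.628 to 1.52 in spleen. In liver they did not overlap between genotypes, where the positive side had 0.4999 to 0.729 and the negative side 1.45 to 2.15. The recovered reads of a precursor ranged from 63 to 82334 per library. The coefficient of variation between the 3 libraries of a side was at least 5 times that of counting alone in 29 of 40 sides and below 2 times in 2, which were the positive sides of Mir199a-2 in liver (2.22% against 1.97%) and of Mir214 in spleen (5.20% against 2.93%). In the positive side of brain Mir214, with the fewest reads, it was 20.6% against 9.86%.

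In 4 organs 1 library stood apart from the other 5, always on the negative side. Distance was measured as the median absolute log2 difference from the median of the other libraries, over 22 to 30 listed features per organ that exclude the 5 precursors. It was 0.72 for brain negative library 3 against at most 0.27 for the others, 0.58 for heart negative library 1 against 0.26, 0.95 for kidney negative library 2 against 0.22, and 0.86 for liver negative library 2 against 0.47. In spleen the largest distance was 0.28 and the next 0.26. The neuronal precursor Mir124a-3 had 0 reads in the heart, kidney and liver libraries that stood apart and 87 to 457 reads in each other library of those organs. Other listed neuronal precursors were not all low there. Mir9-2 was the lowest in each, down to 48.2 normalized counts against 744 to 3054 in liver. Mir128-2 was instead the highest in heart (5108 normalized counts against 4222 to 4891) and in kidney (1570 against 1063 to 1400). Neuronal content was not tested. The labels place 1 WT library each of heart, kidney and liver in a second sequencing batch and none of brain or spleen, and they give low depth or a missing sample as the reason. Recovered libraries carry no label, so whether these are the same libraries was not tested, and batch was not tested as a term. Contrasts are given below with and without the library that stood apart.

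The first question was where the precursors are found. Mir21a was the most abundant of the 5 in every organ and ranked 2nd of all features in liver and spleen, 3rd in kidney, 10th in heart and 21st in brain. Its share of an organ's summed deposited means was 19.5% in spleen, 19.5% in liver, 6.85% in kidney, 2.18% in heart and 1.24% in brain. The coefficient of variation between libraries that the deposited SE implies was 19.7% in spleen, 29.2% in liver, 36.9% in kidney, 17.8% in heart and 21.5% in brain. On this scale spleen and liver did not differ beyond that spread, whereas kidney, heart and brain each lay below the organ before by 1.76 to 3.14 times. The spleen to brain ratio was 15.7. The tie of spleen and liver depends on the scale: with median-of-ratios scaling between organs liver was 2.12 times above spleen, further apart than 1 implied SD on each side, and 47.4 times above brain.

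The miR-199 and miR-214 precursors followed another order. Mir199a-1 took 0.322% of the heart's summed means, with libraries from 0.275% to 0.423%, and 0.00511% of the brain's, a ratio of 63.0. Between these lay spleen at 0.103%, kidney at 0.0978% and liver at 0.0373%. Mir214, which shares Dnm3os with Mir199a-2, also had its highest share in heart, 0.0333%, followed by spleen at 0.0123%, kidney at 0.0119%, liver at 0.00481% and brain at 0.000642%. The heart to brain ratio of Mir214 was 51.8. For both precursors every heart library lay above every library of the other 4 organs, and every brain library lay below.

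Mir199a-2 and Mir199b were more even outside the brain. Mir199a-2 took 0.0801% in heart, 0.0648% in spleen, 0.0623% in kidney, 0.0236% in liver and 0.00303% in brain, and the heart and spleen libraries overlapped, as did those of spleen and kidney. Mir199b took 0.0851% in kidney, 0.0833% in spleen, 0.0740% in heart, 0.0241% in liver and 0.00416% in brain. Its kidney, spleen and heart libraries overlapped, so their order is not resolved. Together the 3 miR-199 precursors made up 0.476% of the heart, 0.251% of the spleen, 0.245% of the kidney, 0.0850% of the liver and 0.0123% of the brain. Mir21a accordingly exceeded them 4.58 times in heart and 229 times in liver, on counts that do not depend on the organ's total. These ratios and the summed shares do depend on how reads of the shared miR-199 strands were assigned, which is not given.

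**Figure D1:**
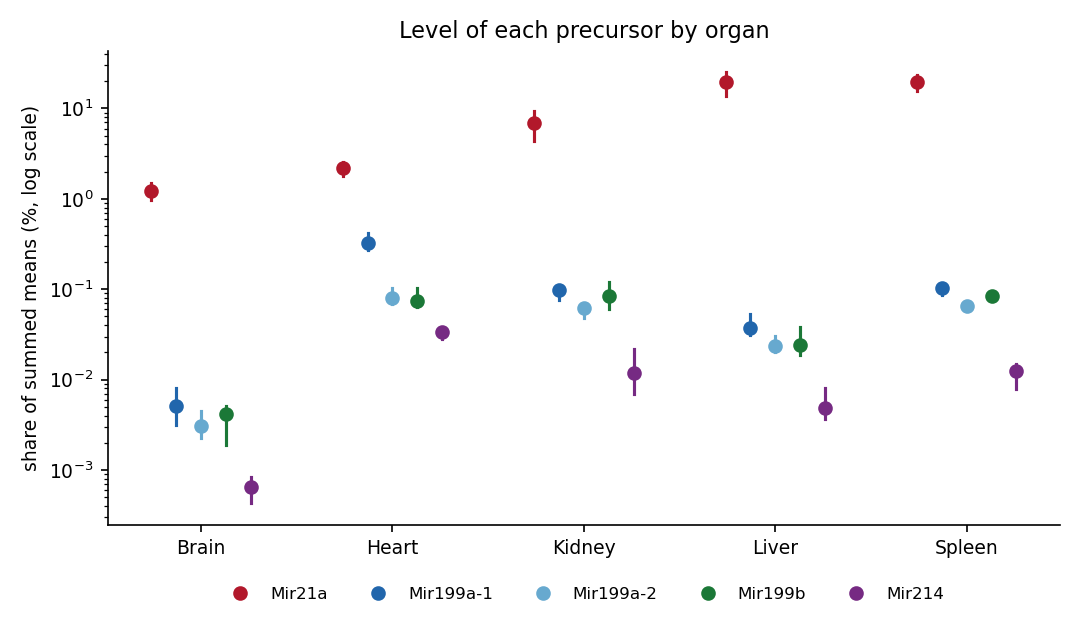
Share of each precursor in the summed deposited means of an organ (percent, log scale). Points are organ means of 6 libraries; lines span the lowest to the highest library, or 1 implied SD to each side for Mir21a, whose reads per library were not recovered. Mir21a is highest in spleen and liver at 19.5%, whereas Mir199a-1 and Mir214 are highest in heart at 0.322% and 0.0333%.

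The hepatocyte, cardiomyocyte, neuronal and leukocyte markers were highest in the organ labelled for them by a wide margin, and the kidney lists were not. The hepatocyte marker Mir122 made up 26.2% of liver, cardiomyocyte precursors 11.6% of heart, and neuronal precursors 21.0% of brain, each with at most 0.213% in any other organ. Epithelial precursors made up 3.19% of kidney but also 1.82% of brain. Precursors listed for kidney tubules made up 8.998% of kidney but also 8.22% of liver. Leukocyte precursors made up 1.84% of spleen and at most 0.198% of any other organ. Of the cell types that share vessels and connective tissue with fibroblasts, the mural cell precursors Mir143 and Mir145a made up 25.7% of spleen, 21.3% of kidney, 19.6% of heart, 5.69% of liver and 3.27% of brain. The endothelial precursor Mir126a was highest in heart at 5.31% and lowest in brain at 0.656%. Heart, spleen and kidney were thus ahead of liver and brain for mural markers as for the miR-199 precursors, and the part of mural or endothelial cells in those levels was not tested. The red cell precursor Mir144 was likewise highest in heart at 0.228% and lowest in brain at 0.00713%. Between these lay spleen at 0.139%, liver at 0.0891% and kidney at 0.0808%.

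The paralogs of Mir21a were scarce. The mean of Mir21c in the authors' deposited table was 23.9 in liver, 14.99 in spleen, 8.81 in kidney, 2.46 in brain and 0.922 in heart. Mir21b reached 13.9 in liver and was below 5 normalized counts elsewhere, with 4.25 in spleen. Mir761, the other listed precursor with the miR-214-3p seed, had a mean of 0.757 in heart and 0 in the other organs.

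The within-library ratio of 2 precursors is free of depth and of the organ's total, and that of Mir199a-1 to Mir199a-2 set heart apart from the other organs. Mir199a-1 over Mir199a-2 was 4.01 ± 0.07 in heart (SD, n = 6 libraries), with all 6 between 3.92 and 4.13. In kidney it was 1.57 ± 0.04, in spleen 1.59 ± 0.07, in liver 1.57 ± 0.17 and in brain 1.79 ± 0.88. The heart libraries overlapped with those of no other organ, and each of the 4 differences had an adjusted p of 0.0062 (exact permutation test, two-sided, n = 6 against 6, Benjamini-Hochberg over 40 ratio tests). An unadjusted p of 0.0022 is the smallest that 6 against 6 allows. The other 6 organ pairs gave adjusted p-values between 0.82 and 0.99 for this ratio by the same exact test. These tests treat the libraries of different organs as independent, although the same mice gave all organs. Since both hairpins give identical mature strands, this ratio compares the reads counted in 2 rows of the table, not 2 mature products. The parts of locus output and of read assignment in it were not tested.

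Mir199b and Mir214 also stood in other proportions in heart. Mir199b over Mir199a-1 was 0.229 ± 0.009 in heart, 0.638 ± 0.045 in liver, 0.810 ± 0.056 in spleen, 0.864 ± 0.1196 in kidney and 0.905 ± 0.356 in brain (SD, n = 6). Heart differed from each other organ, with adjusted p of 0.0062 against kidney, liver and spleen and 0.016 against brain (exact permutation test). Liver was also below kidney and spleen, each with an adjusted p of 0.0062 by that exact test. Mir214 over Mir199a-2, 2 precursors that lie in exons of Dnm3os, was 0.418 ± 0.049 in heart and between 0.188 and 0.226 on average in the other organs. The adjusted exact permutation p was 0.0062 against kidney, liver and spleen and 0.012 against brain. How reads were divided between Mir199a-1 and Mir199a-2 enters this ratio too, and its part was not tested. Over the 5 organs the log2 share of Mir214 had r = 0.999 with Mir199a-1 and 0.977 with Mir199a-2. Exons of 5 Dnm3os transcripts lie at Mir199a-2 and of 3 at Mir214. Mir199b over Mir199a-2 was 0.920 ± 0.049 in heart, 1.01 ± 0.16 in liver, 1.29 ± 0.07 in spleen, 1.36 ± 0.20 in kidney and 1.38 ± 0.37 in brain, and heart and liver did not differ at an adjusted exact p of 0.58. In all, 19 of 40 organ differences of a ratio passed an adjusted p of 0.05. The ratios share precursors, and Mir199b over Mir199a-1 is fixed by Mir199b over Mir199a-2 and Mir199a-1 over Mir199a-2. The 40 tests are therefore not independent. The ratios were also chosen after their values were seen, so these p-values describe a pattern picked from the same data. How often ratios of other features differ between the organs was not tested. The 19 of 40 are therefore not set against a background share.

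**Figure D2:**
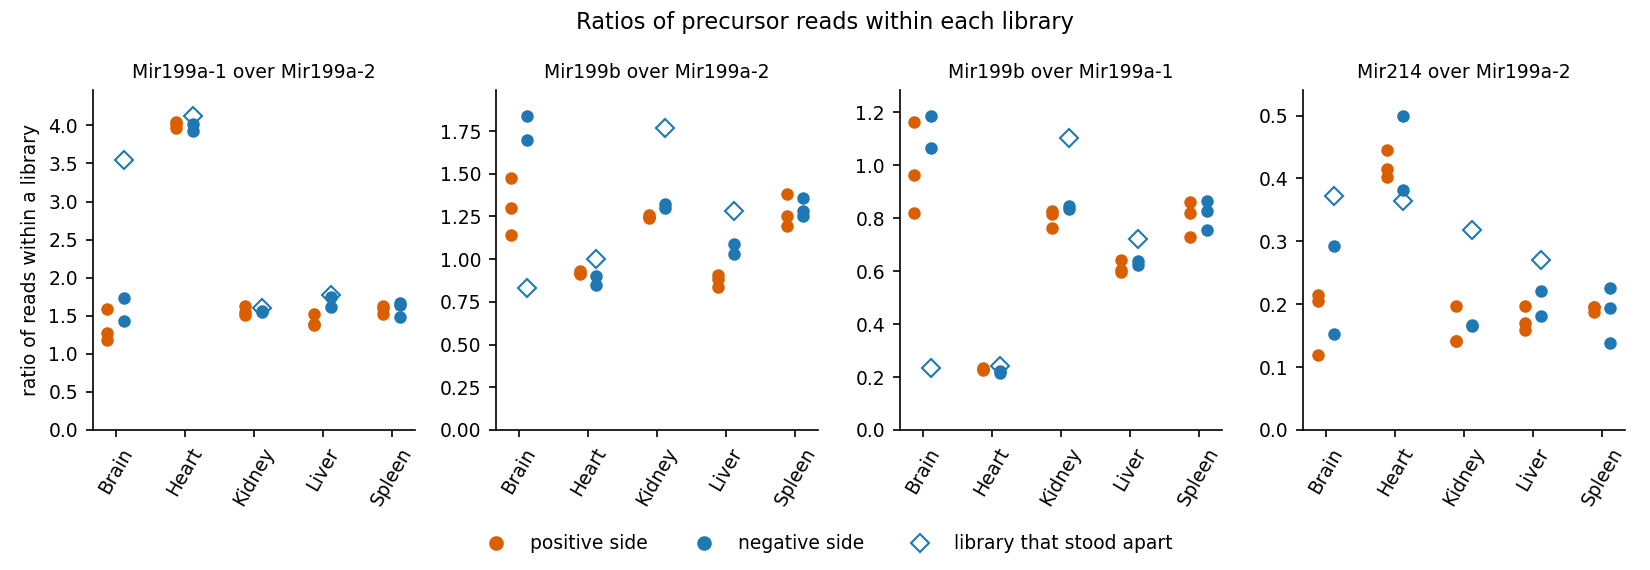
Ratio of the reads of 2 precursors within each library, by organ (linear axes from 0). Orange and blue points are libraries of the positive and negative side and open diamonds are the libraries that stood apart; heart is set off at 3.92 to 4.13 for Mir199a-1 over Mir199a-2, and the brain diamond lies at 3.55.

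Brain negative library 3 broke the pattern of its organ. Its ratio of Mir199a-1 to Mir199a-2 was 3.55, against 1.19 to 1.73 in the other 5 brain libraries. Its ratio of Mir199b to Mir199a-1 was 0.234, inside the heart range of 0.217 to 0.243 and below the 0.820 to 1.19 of the other brain libraries. Mir214 over Mir199a-2 was 0.372 in it and 0.1198 to 0.292 in the others. Of 7 listed cardiomyocyte precursors, reads were recovered in brain for 6, of which this library was above the other 5 libraries in 1, below them in 2 and among them in 3. Mir133a-1 was above, at 423 normalized counts against 244 to 336, whereas Mir133a-2 had 191 against 400.2 to 492 and Mir499 had 224 against 346 to 648. Mir208a had 4.05 against 1.56 to 22.7. The 6 together summed to 4244 in this library and to 4444 to 6618 in the others, and the part of heart tissue in its ratios was not tested. Without the brain, heart, kidney and liver libraries that stood apart, 22 of 40 ratio differences passed, among them all 19 above.

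The next question was whether loss of Ftsj1 changes the level of these precursors. No contrast of the 25 passed an adjusted p of 0.05 by DESeq2 in the authors' deposited table, against 0.134% of all features over the organs (1.13% in heart, 0.229% in liver and 0% in the remaining 3). At an unadjusted p under 0.05 the count was also 0 of 25, against 3.89% of all features. The smallest deposited p was 0.12, for Mir21a in heart, and deposited adjusted p-values of the 5 precursors ran from 0.56 to 0.99 (DESeq2). SEs of 0.21 to 0.44 on the log2 scale set the limit, and the 95% intervals of the 25 contrasts together span -1.41 to 1.16.

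Mir21a had a positive log2 fold change in every organ of the authors' deposited table. It was 0.33 in heart (SE 0.21, 95% interval -0.08 to 0.74), 0.31 in kidney (SE 0.43), 0.10 in spleen (SE 0.23), 0.09 in liver (SE 0.34) and 0.05 in brain (SE 0.25). All 5 intervals include 0. The heart estimate is a 1.26-fold difference with an interval of 0.945 to 1.67 fold, so a change above 1.67 fold towards the positive side lies outside it. The organs come from the same mice, so the 5 signs are not independent.

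The largest of the 25 deposited contrasts belonged to Mir214 in kidney. In kidney its normalized counts were 2032, 1498 and 2686 on the positive side and 2194, 4765 and 2430 on the negative side. The sides overlapped, and kidney negative library 2, the one that stood apart, held the only value above 2686. The deposited log2 fold change was -0.60 (SE 0.42, p = 0.15, adjusted p = 0.98, the authors' deposited table, DESeq2), and a refit without that library gave -0.16 (SE 0.47). In liver the counts were 727, 847 and 704 against 957, 1534 and 691, again with liver negative library 2 as the highest. The deposited log2 fold change of -0.48 became -0.12 without it.

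Heart, spleen and brain showed smaller Mir214 differences. Heart libraries held 3134, 2423 and 2465 normalized counts on the positive side and 3174, 2587 and 3204 on the negative side, for a deposited log2 fold change of -0.16. Spleen libraries held 1309, 1453 and 1386 against 1363, 1588 and 853, where negative library 3 was the lowest, for a deposited value of 0.12. Brain libraries held 82.1, 118 and 86.3 against 69.5, 130 and 135, for a deposited value of -0.22. In all 3 organs the sides overlapped.

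Mir199b showed the same feature as Mir214 in kidney and liver. Its kidney counts were 17972, 13329 and 16969 on the positive side and 17621, 26452 and 18854 on the negative side, and the deposited log2 fold change of -0.38 became -0.18 without negative library 2. Its liver counts were 3882, 3591 and 3945 against 4731, 7292 and 3915, and -0.48 became -0.18. In heart the counts were 6447, 5374 and 5714 against 8742, 5766 and 5773, and -0.21 became 0.02 without negative library 1. In each organ the library that stood apart held the highest Mir199b value of the 6. In brain it held the lowest instead: the counts were 589, 716 and 823 against 776, 816 and 301, and 0.17 became -0.17.

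Mir199a-1 differed by side in the same direction as Mir199b in heart, kidney and liver. Its heart counts were 28480, 23409 and 24244 against 36042, 26619 and 25761, and the deposited log2 fold change of -0.22 became -0.05 without negative library 1. In liver the deposited value of -0.36 became -0.14, and in kidney -0.16 became -0.11. In brain the counts were 507, 873 and 855 against 654, 766 and 1289, and -0.28 became 0.07. Mir199a-2, which shares its mature strands, had a brain contrast of the other sign, 0.40 (SE 0.32) in the authors' deposited table and 0.30 without negative library 3. Its other deposited values were 0.09 in spleen, -0.09 in liver, -0.15 in kidney and -0.21 in heart.

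Sides overlapped in all 20 combinations with recovered reads, against non-overlapping sides in 9.46% of 148 comparisons of other listed features. The smallest exact permutation p was 0.20, where 3 against 3 allows 0.10 at best. In spleen, where no library stood apart, the contrasts of the 4 precursors lay between 0.06 and 0.12 with SEs of 0.21 to 0.27.

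The within-library ratios were also compared by genotype. The sides did not overlap in 4 of 20 combinations of ratio and organ, against 7.5% of 1573 ratios of 2 other listed features with a mean of at least 100. Each of the 4 had the smallest possible exact permutation p of 0.10 and an adjusted p of 0.50 over the 20, so none passed. In liver Mir199a-1 over Mir199a-2 was 1.52, 1.38 and 1.39 on the positive side and 1.74, 1.78 and 1.61 on the negative side. Liver Mir199b over Mir199a-2 was 0.907, 0.838 and 0.887 against 1.09, 1.28 and 1.03. In kidney that ratio was 1.25, 1.26 and 1.24 against 1.32, 1.77 and 1.30, and Mir199b over Mir199a-1 was 0.826, 0.814 and 0.762 against 0.848, 1.10 and 0.835. The negative side was higher in all 4, and its highest value was each time the library that stood apart.

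**Figure D3:**
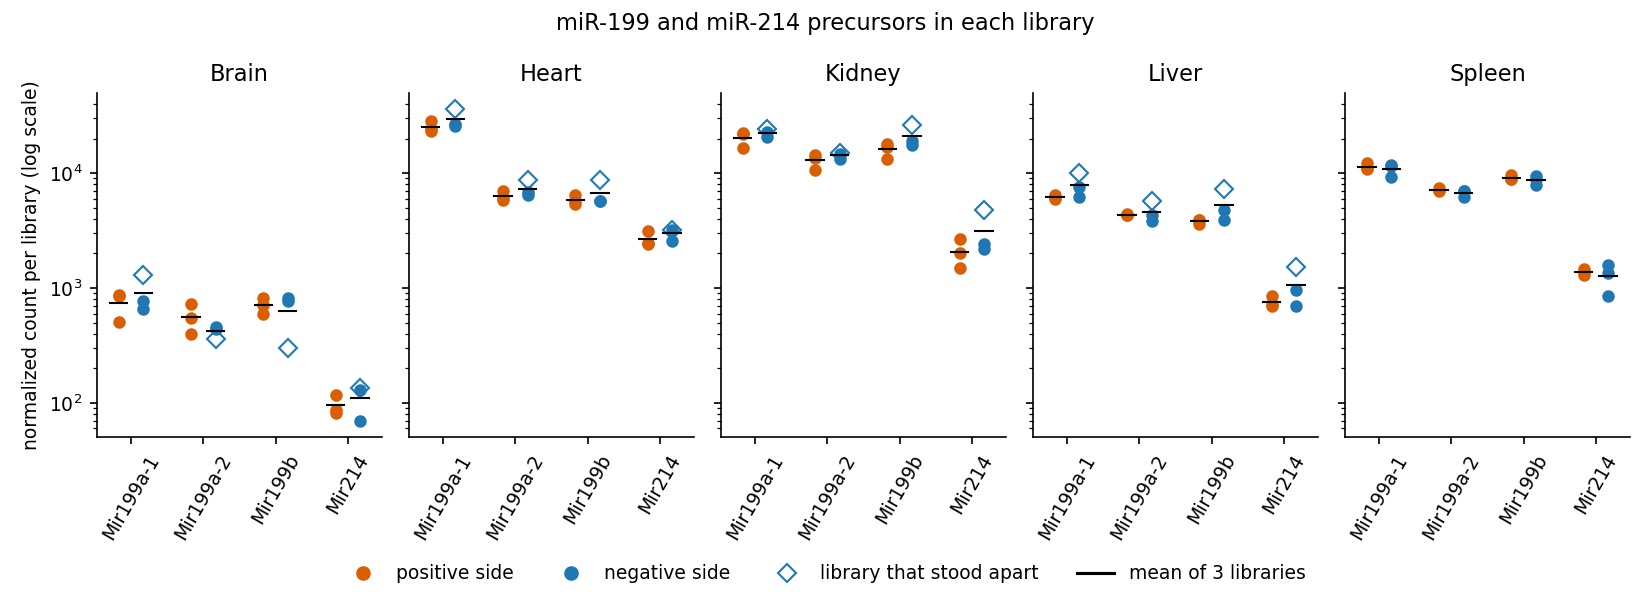
Normalized counts of the miR-199 and miR-214 precursors in each recovered library (log scale), by organ and side; bars are means of 3 libraries and diamonds mark libraries that stood apart. The sides overlap in all 20 combinations, and in kidney and liver the diamond is the highest Mir199b and Mir214 value.

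Seen by sign, all 4 miR-199 and miR-214 precursors were negative in heart, kidney and liver, and none was negative in spleen. Of all features with a mean of at least 10, 51.8% were negative in heart, 51.5% in kidney, 49.6% in liver, 50.2% in spleen and 50.1% in brain, where 2 of the 4 were. Medians of the 4 were -0.21 in heart, -0.27 in kidney, -0.42 in liver, -0.02 in brain and 0.08 in spleen, while the medians of all such features lay between -0.03 and 0.00. Without the library that stood apart, 3 of the 4 stayed negative in heart and in liver and all 4 in kidney, at -0.18 or nearer to 0. The 4 precursors share libraries and, for miR-199, mature strands, so their signs are not independent.

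**Figure D4:**
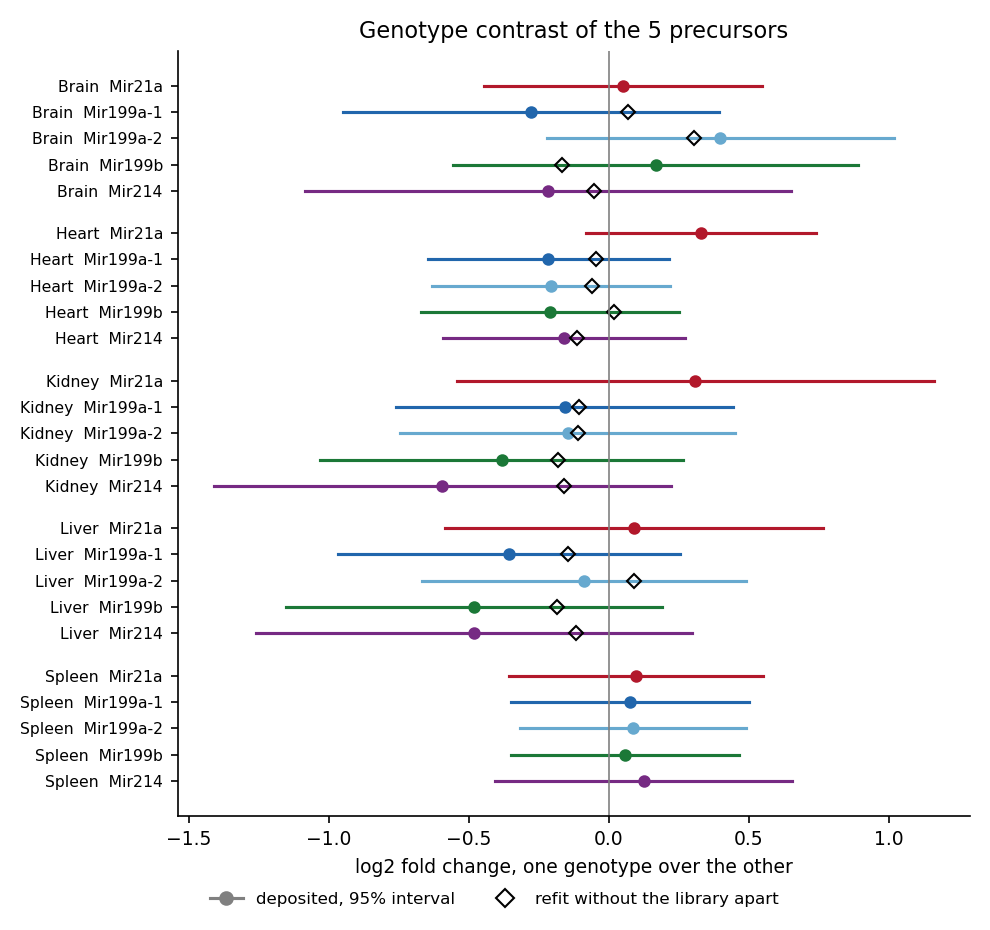
Deposited log2 fold change between genotypes with its 95% interval for the 5 precursors in each organ; open diamonds are refits of the recovered reads without the library that stood apart. All 25 intervals include 0, and the Mir214 estimates of -0.60 in kidney and -0.48 in liver move to -0.16 and -0.12.

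Whether the contrast depends on the organ was tested for each precursor over 10 pairs of organs. None of the 50 differences passed an adjusted p of 0.05 (z test of 2 deposited fold changes, Benjamini-Hochberg over all features of the pair), against 0.012% of all features over the pairs and 0.135% in the pair of kidney and liver, the highest of the 10, and 0 had an unadjusted p under 0.05. The largest z belonged to Mir199a-2 in brain against heart, with a log2 difference of 0.61 (SE 0.38, adjusted p = 0.99 from DESeq2 estimates). Mir214 in kidney and spleen differed by -0.72 (SE 0.4967), with an adjusted p of 0.996 from DESeq2 estimates. The Mir21a contrasts lay between 0.05 in brain and 0.33 in heart.

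Within the heart the 3 miR-199 precursors, whose rows share mature strands, rose and fell together over the libraries. How reads of shared strands were assigned is not given, so these relations do not test whether the genes are regulated together. Mir199a-1 over Mir199a-2 was nearly fixed in heart, at 3.92 to 4.13, and their r restates that ratio. Over 6 heart libraries, log2 normalized counts of Mir199a-1 and Mir199a-2 had a Pearson r of 0.997 (exact permutation p = 0.0014) and a Spearman rho of 1 (exact p = 0.0028). The adjusted p over 30 such relations was 0.028, and r was 0.981 without the 2 libraries farthest from the median. Mir199b followed Mir199a-1 with r = 0.980 (exact p = 0.0028, rho = 0.943 with exact p = 0.017), or 0.856 without the 2 farthest. Mir199a-2 and Mir199b gave r = 0.968 (exact p = 0.0028, rho = 0.943 with exact p = 0.017), or 0.772 without the 2 farthest. In kidney Mir199a-1 and Mir199a-2 had r = 0.979 (exact p = 0.0056, rho = 0.943 with exact p = 0.017), which fell to 0.686. In liver Mir199a-1 and Mir199b had r = 0.989 (exact p = 0.0069, rho = 0.829 with exact p = 0.058), which fell to 0.624, so the kidney and liver relations rest in part on those libraries. These 5 of 30 relations passed an adjusted p of 0.05, and no relation of Mir214 did. Relations between other features over the same libraries were not tested, so the 5 of 30 are not set against a background share. The heart library that stood apart held the highest value of each miR-199 precursor, and identical mature strands are counted in these rows.

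The other fibrosis-related precursors gave the wider setting. Of 18 precursors listed as restraining fibrosis, among them the miR-29, miR-26 and miR-133 genes, 0 passed in any organ, against the 0% to 1.13% of all features per organ given above, and their median log2 fold change was 0.29 in kidney and between -0.04 and 0.04 elsewhere. Of 12 listed as promoting it, such as the miR-125b genes, 0 passed in any organ, with medians of -0.25 in heart, -0.22 in kidney, -0.12 in liver, -0.04 in brain and 0.21 in spleen. In kidney 14 of 17 restraining precursors with a mean of at least 10 were positive and 9 of 12 promoting ones negative, where 51.5% of all 429 such kidney features were negative. The kidney library that stood apart was low in Mir29c, with 2678 normalized counts against 7495 to 9426 in the others, and high in Mir328, with 13674 against 2278 to 3346. Its part in those counts was not tested. Mir125b-2 had the lowest deposited p of the abundant promoting precursors in kidney, 0.045, at a log2 fold change of -0.93 and an adjusted p of 0.98 (the authors' deposited table, DESeq2).

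Across the 5 organs the shares of some other features ran in parallel with the 5 precursors, as a description over 5 points that share their libraries. Mir199a-1 and Mir214 were most alike, with r = 0.999 of log2 shares, and Mir199a-2 and Mir199b had r = 0.992. Mir21a was not close to any of them, with r from 0.299 to 0.505. Outside the group, Mir450-2 was among the 5 features nearest to Mir199a-2, Mir199b and Mir214 (r of 0.979, 0.984 and 0.961), and Mir27a was near Mir199a-1 and Mir214 (0.965 and 0.957). Mir450-1 lay near Mir199a-2 and Mir199b (0.970 and 0.983), Mir152 near Mir199a-2 (0.969), and Mir542 and Mir143 near Mir199b (0.959 and 0.957). Mir5100 and Mir450b completed the list of Mir199a-1 (0.964 and 0.960) and Mir144 that of Mir214 (0.962). Nearest to Mir21a were Mir3967, Mir802, Gm56154, Mir3965 and Snord43, with r from 0.943 to 0.996.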

How the data were processed

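Small RNA libraries were made from whole organs with the NEXTflex kit after phenol-based extraction, per the labels' protocols. The submitters' processing notes name featureCounts of Subread 2.0.3, GRCm39 and DESeq2. The sources used here do not give the aligner, the annotation, the model terms or the rule for reads with several matches. The authors deposited 1 table per organ with a mean normalized count (a signal, in counts over size factors), a log2 fold change with its SE, a Wald statistic (a score equal to fold change over SE), a p-value and an adjusted p-value, per the file headers. Each table has 2195 rows, of which 1 without a name was dropped. There were 0 unused columns of values per sample. An adjusted p is given for 355 of the 1107 heart features with a p-value.

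The 5 precursors, the 12 lists (with 69 symbols) and the tests were chosen with earlier results of these data known. Named features are the 5 precursors, their paralogs, the 2 most abundant of a list where none passed, and the 5 features nearest in log2 share among 326 with a mean of at least 10 in all organs. Cell type lists matched by symbol gave 0 calls in every organ, where 0% of all features were called in brain, kidney and spleen, 0.229% in liver and 1.13% in heart. Shares use the summed means of named features.

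Size factors were found from means below 1 (all such means of brain, heart, kidney and spleen and 225 of 227 in liver were explained). Whole reads per library were sought as the one set of 6 numbers that gives the deposited mean and, in a negative binomial fit of the sides, the deposited fold change within 2e-14 at the deposited SE. The match needed a model of genotype alone. For the 20 combinations the worst accepted difference was 1.1e-14 and the nearest rejected one 5.9e-14. In simulated libraries of the same 20 combinations, 18 gave the simulated reads, 0 gave others and 2 gave none. For heart against spleen on 959 simulated features, differences were placed in 200 features drawn from the more abundant ones only. Of these, 39 of 200 differences of 1 and 132 of 200 differences of 2 (log2) were recovered, with 2 and 6 false calls. Other pairs of organs were not simulated. Refits kept the dispersion of the full fit. Ratios between organs were tested by exact permutation, and contrasts between organs by a z test of deposited estimates. The ratios, the measure of libraries that stood apart, the pairs of copies, and Mir328, Mir34a, Mir29c, Mir208a, Mir499, Mir124a-1, Mir124a-3, Mir133a-1 and Mir133a-2 were chosen after their values were seen. The labels do not tie a recovered library to a mouse. Python 3.11.15 with numpy and scipy was used. Total reads per library are not analysed here.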

Additional observations from a re-analysis of the deposited data

How the results depend on the processing

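No paired analysis was possible because the mouse numbers are shared between organs and not between the genotypes of an organ, and the recovered libraries carry no mouse number. The 25 contrasts kept their sign and stayed above an adjusted p of 0.05 under adjustment over all features, over those at a mean of 10 or more, or over Mir symbols, and after centring on the organ's median. The count of calls was 0 each time. Median-of-ratios scaling between organs moved the level ratios to 22.3 for Mir21a in spleen over brain (47.4 in liver over brain, the highest over the lowest), 95.1 for Mir199a-1, 39.9 for Mir199a-2 and 78.2 for Mir214 in heart over brain, and 37.1 for Mir199b in kidney over brain. Under it, and without the 3 most abundant other features, liver came before spleen for Mir21a (by 2.12 times under the former) and kidney before spleen for Mir199a-1, Mir199a-2 and Mir214. Brain stayed lowest for the 5 precursors on the 4 scales, and heart highest for Mir199a-1, Mir199a-2 and Mir214. With a correlation of 0.5 between organs, 0 of 50 organ differences passed and 2 had an unadjusted p under 0.05, the smallest 0.031.

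Leaving out 1 library at a time was added after seeing the data. None of 120 refits had an unadjusted p under 0.05, the smallest being 0.076. Log2 fold changes of Mir199a-1 ranged from -0.47 to 0.068 in brain, -0.31 to -0.05 in heart, -0.24 to -0.03 in kidney, -0.51 to -0.14 in liver and -0.029 to 0.14 in spleen. Those of Mir199a-2 ranged from 0.17 to 0.59 in brain, -0.29 to -0.06 in heart, -0.24 to -0.02 in kidney, -0.21 to 0.090 in liver and 0.03 to 0.12 in spleen. Mir199b ranged from -0.17 to 0.39 in brain, -0.31 to 0.019 in heart, -0.49 to -0.18 in kidney, -0.66 to -0.18 in liver and -0.0073 to 0.12 in spleen. Mir214 ranged from -0.47 to -0.05 in brain, -0.29 to -0.09 in heart, -0.83 to -0.16 in kidney, -0.71 to -0.12 in liver and -0.094 to 0.32 in spleen. Ratio differences between organs passed in 18 to 22 of 40 tests over 6 added settings. The 12 differences of heart from the other organs in Mir199a-1 over Mir199a-2, Mir199b over Mir199a-1 and Mir214 over Mir199a-2 passed in each. Of the 5 features nearest in share, median-of-ratios levels kept 3 for Mir199a-1 and Mir214, 4 for Mir199a-2 and Mir199b and 5 for Mir21a. Precision is limited by 3 libraries a genotype, and the reads of Mir21a per library were not recovered.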

Other observations

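Other precursors with a shared mature strand were looked at after the heart ratio of Mir199a-1 to Mir199a-2 had been seen. Among 18 further pairs with a deposited mean of at least 100 in every organ and at least 1 identical RefSeq mature strand, 5 had a ratio of deposited means in heart at least 2 times above or below the median of the other organs. Mir26a-1 over Mir26a-2 was 0.534 in heart and 1.69 to 2.17 in the other organs. Mir365-1 over Mir365-2 was 1.31 in heart and 3.40 to 4.27 elsewhere, and Mir128-1 over Mir128-2 was 1.90 against 2.97 to 4.29. Mir125b-1 over Mir125b-2 was 1.54 in heart against 0.573 to 0.705, and Mir218-1 over Mir218-2 was 1.77 against 0.720 to 0.889. Mir9-2 and Mir9-3, whose mature strands are all identical, kept a ratio of 1.01 to 1.12 in all 5 organs. Mir16-1 over Mir16-2 stayed between 0.579 and 0.646. How reads with several matches were counted is not given in the sources used here, and its part in these ratios was not tested.

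The brain library that stood apart also divided the copies of another family differently. Mir133a-1 over Mir133a-2 was 2.22 in that library and 0.548 to 0.719 in the other 5 brain libraries. Its normalized count of the neuronal precursor Mir124a-1 was 18556, against 7941 to 9377 in the others, and that of Mir34a was 1647 against 4261 to 6554. The labels give all brain libraries the same batch number.

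In the heart, kidney and liver libraries that stood apart, the lymphocyte precursor Mir150 was the highest of the 6 libraries, at 14854 normalized counts against 7718 to 10954 in heart, 6331 against 1388 to 2845 in kidney and 2036 against 863 to 1310 in liver. Mir328 was also the highest in each, and Mir29c the lowest, with 2227 against 3127 to 4207 in heart and 3070 against 7019 to 10849 in liver. Other listed leukocyte precursors went both ways. Mir142b was the lowest in kidney (922 against 2298 to 2935) and liver (1310 against 2150 to 3511), and inside the range of the others in heart. Mir155 was the highest in heart and kidney and Mir223 in kidney and liver, each inside that range in the remaining organ. The leukocyte content of these libraries was not tested.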
